A study of Homo sapiens with 12 samples.

Results

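Genes of the basement membrane and the extracellular matrix were followed by RNA sequencing in HepG2 cells with silenced or overexpressed TST. HepG2 is a cell line from a human hepatocellular carcinoma. The 44 genes, of 57500 in the count files, code for laminins, collagens, proteoglycans, microfibril proteins, other secreted matrix proteins and the receptors that bind them. Of these, 41 were listed by name. The other 3, FRAS1, FBN1 and RELN, were chosen by their measured fall in overTST against WT, so their values are given below as a description, without a test, and they stay out of every count of members called. Each of 3 groups had 4 libraries, namely the wild type (WT), a line in which an shRNA lowers TST (shTST) and a line with extra TST (overTST). All groups, WT included, were kept in medium with 400 µM glycine for 24 h. TST codes for thiosulfate sulfurtransferase, also called rhodanese, a mitochondrial enzyme that converts cyanide to thiocyanate. The engineered lines were made with lentiviral vectors and selected with blasticidin, and the overexpressed TST sequence was codon optimized and driven by a CMV promoter. Whether the lines were clones or pools, and whether the WT cells had carried an empty vector, is not stated in the sources used here, so effects of transduction and selection cannot be told apart from those of TST. The methods of the study define independent experiments, for its data in general, as those run on separate days, but neither they nor the labels say this of these libraries, so the p-values measure the spread between the 4 libraries of a group, part of which may be technical.

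A basement membrane is a thin sheet of matrix that lies under epithelia and around vessels. Laminin trimers and type IV collagen form its networks, nidogens link them, and heparan sulfate proteoglycans such as perlecan (HSPG2) and agrin (AGRN) are bound to them. Cells hold on to this sheet through integrins, which are pairs of an alpha and a beta subunit, and through dystroglycan (DAG1). In the interstitial matrix, fibrillins build microfibrils that store latent TGF-beta through the latent TGF-beta binding proteins (LTBP genes). Hepatocytes are the main source of plasma fibronectin (FN1) and vitronectin (VTN), whereas a continuous basement membrane is missing from the normal liver sinusoid and is laid down during fibrosis and around tumours.

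Library totals were 28866175 to 45120508 counts in WT, 27527854 to 33865386 in shTST and 22911380 to 27414142 in overTST, so every overTST library was shallower than every WT library. The mitochondrial share of counts was 6.91%, 9.42%, 6.95% and 11.98% in WT replicates 1 to 4, 6.84% to 8.65% in shTST and 10.8% to 11.7% in overTST, so the 2 engineered lines did not overlap in it. WT replicate 4 also stood apart from WT replicates 1 and 3 in its counts over all genes (chi-square per gene 38.9 and 37.1, against 6.30 between those 2 and 3.78 to 10.5 within the engineered lines). WT replicate 2, the deepest library, stood apart from them as well (19.7 and 22.3), and from WT replicate 4 (17.5), although this value grows with depth. Without WT replicate 4, 1 listed member was higher and 6 lower with shTST, and 1 higher and 18 lower with overTST. All libraries gave 6 and 5, and 2 and 19. The part of these differences in the results was not tested. A count was present on 24354 genes in shTST replicate 2 and on 21107 to 22906 in the other 11 libraries, and the calls of members against WT that were lost without that library were those of ITGB4 alone, with shTST. TST had 1535 to 2164 counts in WT, 922 to 1261 in shTST and 1323 to 1561 in overTST. Its log2 fold change was −0.52 with shTST (SE 0.055, edgeR adjusted p = 3.2e-06) and 0.24 with overTST (SE 0.062, edgeR adjusted p = 0.00384), where the native gene's counts need not include the codon-optimized transcript. All 9 hepatocyte markers passed the filter on low counts, and their summed level was 23443 to 26435 CPM (counts scaled to a common library size by TMM factors) in WT, 24669 to 28924 in shTST and 21704 to 26220 in overTST. Of these markers 4 were called higher and 2 lower with shTST, and 2 higher and 2 lower with overTST. Over all genes tested 6.69% were higher and 9.4% lower with shTST, and 15.7% higher and 18.2% lower with overTST. Of 10 fibroblast and stellate cell markers 3 passed, with ACTA2 highest and DCN, LUM and THY1 at 0 in WT, and the summed level was 75.4 to 79.1 CPM in WT, 71.9 to 75.3 in shTST and 71.8 to 83.6 in overTST. The 5 endothelial markers summed to 2.51 to 3.29 CPM in WT, 1.84 to 2.16 in shTST and 3.39 to 3.91 in overTST, low levels that did not overlap, and of the 2 tested 1 was called higher and 1 lower with overTST. LYZ held nearly all of the leukocyte marker signal (1599 to 1677 CPM in WT, 1330 to 1486 in shTST and 1499 to 1745 in overTST for the 4 markers summed), with shTST below WT, while PTPRC and CD3E were at 0 in WT. The 4 cholangiocyte markers summed to 813 to 959 CPM. The 8 markers of mesenchymal transition summed to 103 to 117 CPM in WT, 115 to 125.8 in shTST and 95.5 to 113 in overTST, with CDH2 highest and TWIST1 at 0 in WT. That sum includes the epithelial marker CDH1 (mean 15.5 CPM in WT, 21.6 in shTST and 14.7 in overTST), so it does not measure the transition. These are bulk libraries, so fewer cells of a kind and less RNA per cell cannot be told apart.

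The promoters of 6 members are printed here because the results turn on these genes. They are the 3 picked genes, then HSPG2 and ITGA2, which were lower in both engineered lines, and THBS1, which moved in opposite directions in them. Each line holds the 250 bases before the RefSeq start of the gene on GRCh38.p14, 5′ to 3′ on the gene's own strand, and capitals mark matches, on either strand, to the letters of the GC box (GGGCGG), the TATA box (TATAAA), the CCAAT box (CCAAT), the TEAD motif (GGAATG), the AP-1 motif (TGACTCA) and the E-box (CACGTG). The windows lie at chr4:78057073-78057322 on the plus strand for FRAS1, chr15:48644971-48645220 on the minus strand for FBN1, chr7:103989659-103989908 on the minus strand for RELN, chr1:21937311-21937560 on the minus strand for HSPG2, chr5:52989102-52989351 on the plus strand for ITGA2 and chr15:39580829-39581078 on the plus strand for THBS1.
FRAS1: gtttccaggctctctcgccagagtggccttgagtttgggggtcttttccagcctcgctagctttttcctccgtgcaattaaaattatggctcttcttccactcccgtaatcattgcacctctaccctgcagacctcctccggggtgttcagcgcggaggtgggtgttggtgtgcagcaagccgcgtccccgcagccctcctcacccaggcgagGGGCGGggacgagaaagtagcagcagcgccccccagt
FBN1: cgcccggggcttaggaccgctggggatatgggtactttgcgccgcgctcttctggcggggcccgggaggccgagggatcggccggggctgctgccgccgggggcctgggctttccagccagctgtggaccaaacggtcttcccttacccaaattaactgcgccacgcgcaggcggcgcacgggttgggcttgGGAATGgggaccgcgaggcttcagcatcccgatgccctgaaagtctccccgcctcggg
RELN: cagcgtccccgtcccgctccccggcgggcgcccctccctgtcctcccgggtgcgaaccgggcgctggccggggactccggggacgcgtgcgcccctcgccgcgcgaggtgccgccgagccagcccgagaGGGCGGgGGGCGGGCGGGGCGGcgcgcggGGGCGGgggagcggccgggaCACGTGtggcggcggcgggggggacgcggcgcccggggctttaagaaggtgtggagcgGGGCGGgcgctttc
HSPG2: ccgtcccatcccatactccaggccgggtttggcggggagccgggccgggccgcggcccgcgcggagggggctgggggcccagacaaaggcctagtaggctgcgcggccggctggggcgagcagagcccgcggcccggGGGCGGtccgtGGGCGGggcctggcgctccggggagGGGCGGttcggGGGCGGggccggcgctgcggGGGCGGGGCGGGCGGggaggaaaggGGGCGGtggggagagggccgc
ITGA2: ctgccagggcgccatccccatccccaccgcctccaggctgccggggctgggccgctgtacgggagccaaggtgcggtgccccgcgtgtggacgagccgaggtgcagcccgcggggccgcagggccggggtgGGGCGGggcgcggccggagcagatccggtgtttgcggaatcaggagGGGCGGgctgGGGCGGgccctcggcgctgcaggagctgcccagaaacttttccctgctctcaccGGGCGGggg
THBS1: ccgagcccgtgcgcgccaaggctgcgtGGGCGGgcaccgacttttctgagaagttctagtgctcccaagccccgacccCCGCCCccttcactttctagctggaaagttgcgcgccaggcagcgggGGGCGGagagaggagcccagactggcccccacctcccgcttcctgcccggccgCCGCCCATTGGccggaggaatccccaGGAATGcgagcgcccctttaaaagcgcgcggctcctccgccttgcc

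HSPG2 held 8 matches to the GC box letters and RELN 6, several of them overlapping, whereas ITGA2 and THBS1 held 4 each, FRAS1 held 1 and FBN1 held 0. The GC box letters alone account for every capital in the FRAS1, HSPG2 and ITGA2 windows. The GGAATG letters stood in the windows of FBN1 and THBS1, and the CACGTG letters in that of RELN. RefSeq windows that reach 50 bases past the start were at hand for 40 of the 44 members (55 windows, since a gene can have several starts) and for 35116 starts over all genes. Of the members' windows 38 held a GC box, against 42.6% of all windows, 16 held CCAAT (32.0%), 8 held GGAATG (11.9%), 4 held TATAAA (10.7%), 3 held TGACTCA (4.20%) and 3 held CACGTG (6.34%). The last bases of the ITGA2 window fall in its first exon as the deposited files annotate it, and the FBN1 window lies within that gene's annotated span. These are matches of letters, not sites at which a factor was shown to bind.

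Collagen IV genes lie head to head in pairs, and the bases between the starts of each pair are printed because of this arrangement. COL4A5 and COL4A6 were both called higher with shTST, but with overTST only COL4A5 was called, as lower. COL4A1 and COL4A2 were both near the floor. The stretch between COL4A6 (minus strand) and COL4A5 (plus strand), whose RefSeq starts are 379 bases apart, is given for the 121 bases that both windows hold, chrX:108439588-108439708, and the stretch between COL4A1 (minus strand) and COL4A2 (plus strand) for all 126 bases between the starts, chr13:110307158-110307283. Both are written 5′ to 3′ on the plus strand of GRCh38.p14, with the same motifs in capitals.
COL4A6 and COL4A5: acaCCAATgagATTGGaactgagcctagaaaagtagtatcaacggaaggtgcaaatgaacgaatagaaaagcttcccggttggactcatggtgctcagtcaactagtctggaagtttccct
COL4A1 and COL4A2: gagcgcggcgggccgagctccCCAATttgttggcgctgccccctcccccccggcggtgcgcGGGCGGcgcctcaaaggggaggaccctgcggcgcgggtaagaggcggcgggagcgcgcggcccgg
The COL4A6 and COL4A5 stretch held 2 CCAAT matches, 1 on each strand, and the COL4A1 and COL4A2 stretch held 1 CCAAT and 1 GC box match.

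Levels of different genes are compared per length, in RPKM (CPM per kilobase of exonic length). FN1 was the most abundant member, at 414 ± 30.0 RPKM in WT (SD, n = 4), and it alone took 59.4% to 61.9% of the members' summed CPM in WT, 58.2% to 58.8% in shTST and 55.6% to 57.8% in overTST. Next came SPP1 (osteopontin, a secreted phosphoprotein bound by integrins) at 204 ± 13.1 RPKM and VTN at 86.9 ± 6.13, followed by NID1 (nidogen) at 42.7 ± 1.50 and RELN at 35.4 ± 3.29. RELN and DAG1 (33.8 ± 2.36 RPKM) did not differ beyond their spread, nor did the next in order, LAMB2 (32.0 ± 0.848), ITGB1 (31.5 ± 1.91), LAMC1 (31.5 ± 2.57) and AGRN (30.3 ± 2.11). The laminin genes thus fell into an abundant set, LAMA5, LAMB1, LAMB2 and LAMC1, at 22.9 to 32.0 RPKM, and a scarce set, LAMA3 at 0.293 ± 0.0310, LAMB3 at 0.0938 ± 0.0610 and LAMA1 at 0.00259 ± 0.00203. Collagen IV was represented in WT mainly by COL4A5 (1.97 ± 0.148 RPKM) and COL4A6 (0.767 ± 0.107), while COL4A2 (0.0432 ± 0.0152) and COL4A1 (0.00331 ± 0.00231), which code for the chains common to most basement membranes, were near the floor. Among the integrin subunits ITGB1, ITGB5 (27.7 ± 1.55 RPKM) and ITGA6 (17.0 ± 1.19) were highest and ITGA5, the fibronectin receptor subunit, lowest (0.0789 ± 0.0137).

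The 5 members that did not pass the filter on low counts in any comparison were FREM2, LAMA1, COL4A1, NID2 and FBN2. FREM2, a partner of FRAS1 in the Fraser complex of embryonic basement membranes, had 2 counts in shTST replicate 2 and 0 in the other 11 libraries. FBN2 had 12 counts over all libraries and COL4A1 had 7, and both were at 0 in 7 libraries. LAMA1 reached at most 5 counts and NID2, the second nidogen, at most 9. A count of 0 allows up to 3 counts, which are 0.0658 to 0.136 CPM at these depths, so differences between the groups were not detectable for these genes. These limits cover counting error only.

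RELN (ENSG00000189056, chromosome 7, 103471784 to 103989516, minus strand, GRCh38), the gene of reelin, a large secreted glycoprotein best known for positioning neurons and also made in liver, had 507, 435, 441 and 409 CPM in WT, 436, 465, 443 and 467 CPM in shTST, and 196, 167, 153 and 144 CPM in overTST, in the order of replicates 1 to 4, as in all such lists below. Each overTST library was far below each WT and shTST library, and the WT and shTST libraries overlapped. The log2 fold change was −1.44 (SE 0.075) with overTST and 0.016 (SE 0.054) with shTST. FBN1 (ENSG00000166147, chromosome 15, 48408306 to 48645849, minus strand), the gene of fibrillin, had 6.02, 5.33, 4.07 and 4.93 CPM in WT, 4.72, 4.75, 4.49 and 5.41 CPM in shTST, and 2.39, 1.57, 1.50 and 1.73 CPM in overTST. It is a long, sparsely expressed gene here, and its overTST libraries were again the lowest without overlap, with log2 fold changes of −1.50 (SE 0.16) with overTST and −0.078 (SE 0.12) with shTST. FRAS1 (ENSG00000138759, chromosome 4, 78057570 to 78544269, plus strand), which anchors epithelia to the underlying matrix during development, had 111, 112, 101 and 96.2 CPM in WT, 94.7, 94.8, 94.0 and 100.2 CPM in shTST, and 60.4, 58.1, 54.7 and 51.1 CPM in overTST. Its log2 fold change was −0.91 (SE 0.061) with overTST and −0.13 (SE 0.050) with shTST, where the groups overlapped. As these 3 genes were picked for the first of these contrasts, the values describe the choice.

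With TST overexpression, 36 of the 41 listed members passed the filter and 19 were lower, 2 (ITGB4 and COL4A2) higher and 15 not called (edgeR's quasi-likelihood test, Benjamini-Hochberg adjusted p of 0.05 over all genes tested). COL4A2 would not have passed on WT alone, as all 4 overTST libraries but 3 of the 4 WT libraries reached the filter's cut-off. With COL4A2 and LAMB3, which fell short of it in at least 1 group, left aside, 19 of the remaining 34 had fallen and 1 had risen. Of the whole set of genes tested 33.9% were called, 18.2% lower and 15.7% higher. The members' median log2 fold change was −0.28, against 0.0019 over all genes. The lower members included HSPG2 (−0.96), ITGA2 (−0.72), ITGA6 (−0.65), SPARC (−0.63), LAMA5 (−0.63) and FN1 (−0.61). In 18 members all overTST libraries lay below all WT libraries, as did 16.2% of all genes tested. The summed level of all 44 members, the 3 picked genes included, was 11016 to 12513 CPM in WT, 10599 to 11372 in shTST and 8146 to 8335 in overTST. FN1 made up most of this sum, with a mean of 7168 CPM in WT and 4706 in overTST. The sum therefore does not show a fall of the set as a whole.

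The members are long genes, from 2321 to 20379 exonic bases with a median of 8308.5, against 4479 over all genes tested, and 26 of the 44 exceed 8000 bases. Length moved with the change in overTST over all genes, since of genes of over 8000 bases 41.6% were lower and 6.75% higher, with a median log2 fold change of −0.16. Of the 23 listed members of over 8000 bases 19 were tested, and 12 were lower and 1 higher. The higher one was COL4A2, which had fallen short of the filter's cut-off in WT. After a correction for the trend with length in each library, 15 of the 36 listed members tested were lower and 3 higher, with a median of −0.18, against 14.3% lower and 14.2% higher over all genes. Within the long genes, 8 of the 19 members were then lower and 2 higher, against 21.3% lower and 19.1% higher of all long genes. COL4A2 was among the higher members in both counts after the correction. The calls lost with the correction were those of AGRN (−0.14, adjusted p = 0.0752), LAMB1 (−0.044, 0.481), LTBP4 (−0.39, 0.0812) and ITGA1 (−0.23, 0.117), and COL18A1 became higher (0.18, 0.0405). The picked genes, given as a description, stood at −1.26 (RELN), −1.30 (FBN1) and −0.69 (FRAS1) after it.

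With TST silencing, 6 listed members were higher, 5 lower and 25 not called, and over all genes tested 16.1% were called, 6.69% higher and 9.4% lower. COL4A2, ITGA5 and LAMB3 fell short of the filter's cut-off in at least 1 group. With them left aside, 6 of the remaining 33 had risen, 5 had fallen and 22 were not called. The counts of higher and lower members moved when 1 library was left out. The 6 higher became 1 without WT replicate 4, 2 without shTST replicate 4 and 3 without WT replicate 1, and the 5 lower became 2 without shTST replicate 1. Such fits also hold fewer libraries, and the part of this in the lost calls was not tested. The median log2 fold change of the members was −0.0058, against 0.0040 over all genes. The higher members were THBS1, COL4A5, COL4A6, COL18A1, TINAGL1 and DAG1, and the lower ones HSPG2, ITGA2, ITGA6, ITGB4 and ITGB5. All shTST libraries lay above all WT libraries in 3 members and below them in 5, as in 8.37% and 10.8% of all genes. The correction for length also gave 6 higher and 5 lower, against 8.05% and 9.88% of all genes. Compared directly, in a fit of all 12 libraries, 19 listed members were higher in shTST than in overTST, 3 were lower (ITGB4, ITGA3 and ITGB5) and 14 were not called, where 33.0% of all genes were called, 16.9% higher and 16.1% lower. The median direct difference was 0.20, and with the correction for length 16 were higher and 3 lower, against 13.0% and 14.9% of all genes. Of the 3 lower ones, the call of ITGA3 was lost on leaving out shTST replicate 3 (adjusted p = 0.0638) or 4 (0.0526), or overTST replicate 1 (0.0517) or 2 (0.0564), and that of ITGB5 without shTST replicate 1 (0.0812), 3 (0.0631) or 4 (0.0761) or overTST replicate 2 (0.0692), 3 (0.0631) or 4 (0.0754). With no filter the ITGB5 call was lost too (0.153). Of the 19 higher ones, the calls of LAMB1, LTBP3, COL27A1 and ITGA1 were lost with the correction for length. Those of LTBP3 and COL27A1 were also lost on leaving out any 1 of several libraries.

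HSPG2 (ENSG00000142798, chromosome 1, 21822245 to 21937297, minus strand), the gene of perlecan, the main heparan sulfate proteoglycan of basement membranes, had 161, 179, 153 and 153 CPM in WT, 108, 135, 120.4 and 127 CPM in shTST, and 89.8, 98.2, 76.6 and 68.0 CPM in overTST. The 3 groups formed a descending order without overlap. Its log2 fold change was −0.40 (SE 0.060, adjusted p = 1.4e-04) with shTST and −0.96 (SE 0.078, adjusted p = 9.2e-09) with overTST (edgeR), and shTST was above overTST by 0.56 (SE 0.081, adjusted p = 1.5e-05). Of its exonic bases 11.99% are shared with LDLRAD2 on the other strand, and the use of strand in counting is not stated, so its counts are uncertain to that extent. AGRN, the gene of agrin, which clusters acetylcholine receptors at the nerve-muscle junction, had 324, 336, 348 and 295 CPM in WT, 309.8, 319, 369 and 343 CPM in shTST, and 251, 274, 255 and 281 CPM in overTST. The overTST libraries were lowest without overlap, at −0.30 (SE 0.054, adjusted p = 1.7e-04) against 0.040 (SE 0.055, adjusted p = 0.675) with shTST, a fall that did not hold after the correction for length, as given above. COL18A1, whose product carries endostatin at its end, had 155, 162, 171 and 144 CPM in WT, 168, 165, 208 and 186 CPM in shTST, and 145, 163, 168 and 181 CPM in overTST. It was higher with shTST, at 0.20 (SE 0.062, adjusted p = 0.0276), although the groups overlapped, and stood at 0.056 (SE 0.061, adjusted p = 0.512) with overTST. That shTST call was lost on leaving out WT replicate 1 (adjusted p = 0.0614) or 4 (0.0980), or shTST replicate 3 (0.119) or 4 (0.0684), and with limma-voom (0.0530). Of the exonic bases of COL18A1 16.4% are shared with SLC19A1.

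Of the 7 laminin genes 6 were tested, and 4 were lower with overTST (18.2% of all genes), 0 were called with shTST (16.1%) and 4 were higher in shTST than in overTST (16.9%). LAMA5, an alpha chain of adult epithelial basement membranes, had 344, 369, 368 and 312 CPM in WT, 287, 305, 335 and 328 CPM in shTST, and 226, 246, 211 and 217 CPM in overTST. Its overTST libraries lay below all others, at −0.63 (SE 0.057, adjusted p = 3.4e-08) against WT, and it was at −0.15 (SE 0.056, adjusted p = 0.0704) with shTST, a difference that was called with no filter (0.0112), with the replicate block (0.0291), and without WT replicate 4 (0.0251) or shTST replicate 3 (0.0463). The replicate block with the correction for length called this shTST difference too (0.0449). LAMC1, the gamma chain shared by most laminin trimers, had 292, 271, 252 and 243 CPM in WT, 271, 283, 284 and 287 CPM in shTST, and 218, 210.5, 203 and 198 CPM in overTST. The overTST libraries lay below all others, at −0.35 (SE 0.055, adjusted p = 3.5e-05) against WT, while shTST was at 0.090 (SE 0.050, adjusted p = 0.235). LAMB2 fell to 181 ± 7.61 CPM in overTST from 219 ± 5.82 in WT (SD, n = 4 each), at −0.27 (SE 0.047, adjusted p = 9.4e-05). LAMB1, the other abundant beta chain, moved less, from 187 ± 6.95 to 167 ± 2.25 CPM, at −0.16 (SE 0.047, adjusted p = 0.0113), and its call was lost with the correction for length. The chains of the epithelial anchoring laminin, LAMA3 (0.039 (SE 0.13, adjusted p = 0.845) with overTST) and LAMB3 (−0.35 (SE 0.46, adjusted p = 0.594)), were not called in any comparison. After the correction for length LAMA5 (−0.44), LAMC1 (−0.23) and LAMB2 (−0.19) were still called lower in overTST.

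COL4A5 and COL4A6, the collagen IV genes of the X chromosome pair printed above, rose together with shTST. COL4A5 had 16.8, 16.5, 19.2 and 16.5 CPM in WT, 20.7, 18.7, 20.3 and 21.1 CPM in shTST, and 15.4, 13.6, 12.8 and 12.6 CPM in overTST. The overTST libraries lay below all others, and shTST overlapped WT in 1 library while its mean was the highest, at 0.23 (SE 0.069, adjusted p = 0.0251) with shTST, −0.34 (SE 0.083, adjusted p = 0.00279) with overTST and 0.57 (SE 0.077, adjusted p = 7.2e-06) between the lines. COL4A6 had 8.57, 6.83, 6.72 and 6.34 CPM in WT, 8.83, 8.90, 8.28 and 11.1 CPM in shTST, and 6.82, 6.90, 6.98 and 6.45 CPM in overTST, and changed by 0.39 (SE 0.11, adjusted p = 0.0172) with shTST and −0.065 (SE 0.11, adjusted p = 0.682) with overTST. The shTST call of COL4A5 was lost on leaving out WT replicate 1 (adjusted p = 0.0565), 2 (0.0591) or 4 (0.0686), or shTST replicate 1 (0.0619) or 4 (0.0746), and that of COL4A6 without WT replicate 4 (0.0548) or shTST replicate 4 (0.0865). COL4A2, which in WT alone would not have passed the filter, had 14, 22, 12 and 6 counts in WT, 11, 16, 16 and 16 in shTST and 12, 21, 24 and 14 in overTST. Its log2 fold change with overTST, 0.92 (SE 0.33), is given as a description without a test, and the groups overlapped.

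Among the linkers, NID1, which bridges laminin and collagen IV, had 248, 263, 248 and 243 CPM in WT, 262, 245, 255 and 269 CPM in shTST, and 202, 190.1, 199 and 197 CPM in overTST. WT and shTST overlapped and overTST lay below both, with −0.35 (SE 0.047, adjusted p = 5.7e-06) against WT and 0.040 (SE 0.043, adjusted p = 0.582) with shTST. TINAGL1, a basement membrane protein related to tubulointerstitial nephritis antigen, had 12.3, 13.0, 13.4 and 12.1 CPM in WT, 14.0, 14.3, 17.5 and 14.6 CPM in shTST, and 11.0, 12.5, 14.6 and 16.1 CPM in overTST. All its shTST libraries exceeded all WT libraries, at 0.25 (SE 0.079, adjusted p = 0.0308), but the call was lost without WT replicate 1 (adjusted p = 0.0683), WT replicate 4 (0.0805) or shTST replicate 3 (0.138) and in the fit of all 12 libraries (0.0675). With overTST it was at 0.090 (SE 0.096, adjusted p = 0.507).

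Of the 6 listed microfibril genes 5 were tested, and 2 were lower with overTST (18.2% of all genes) and 0 were called with shTST (16.1%). LTBP3, which holds latent TGF-beta in the matrix, had 78.9, 90.0, 87.7 and 78.8 CPM in WT, 66.6, 75.8, 79.8 and 81.6 CPM in shTST, and 63.3, 73.1, 65.9 and 67.8 CPM in overTST. The overTST libraries lay below all WT libraries and overlapped shTST, at −0.31 (SE 0.058, adjusted p = 1.9e-04) against WT, and after the correction for length at −0.16 (adjusted p = 0.0442). With shTST it was at −0.14 (SE 0.059, adjusted p = 0.107), and called lower with no filter (0.0414) and with the replicate block (0.0365). LTBP4 was a scarce gene, with 2.28 to 2.79 CPM in WT and 1.52 to 2.01 in overTST, and was lower at −0.50 (SE 0.17, adjusted p = 0.0215). Its call was lost without WT replicate 4 (0.0689), overTST replicate 2 (0.0716) or overTST replicate 3 (0.0662). LTBP1 and LTBP2 were not called, at −0.41 (SE 0.28, adjusted p = 0.285) and −0.28 (SE 0.14, adjusted p = 0.138) with overTST. FBLN1, a fibulin that binds fibronectin and is also a plasma protein, had 147 to 170.1 CPM in WT, 157 to 190.3 in shTST and 131 to 179 in overTST, with overlap of all groups, and was called in neither comparison with WT.

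FN1 (ENSG00000115414, chromosome 2, 215360440 to 215436172, minus strand), the gene of fibronectin, had 7465, 7749, 6726 and 6732 CPM in WT, 6204, 6436, 6382 and 6690.1 CPM in shTST, and 4815, 4535, 4814 and 4659.7 CPM in overTST. The groups did not overlap, with WT highest and overTST lowest, and the log2 fold change was −0.61 (SE 0.062, adjusted p = 1.8e-07) with overTST and −0.16 (SE 0.060, adjusted p = 0.0761) with shTST, which did not pass. DESeq2 (adjusted p = 0.0152) and limma-voom (0.0148) called this smaller shTST difference, as did edgeR with no filter (0.00560), with the replicate block (0.0450) or without WT replicate 3 (0.0471). SPARC, a matricellular protein that binds collagen, had 62.5, 68.5, 70.5 and 66.1 CPM in WT, 65.4, 71.1, 69.5 and 77.0 CPM in shTST, and 39.6, 48.5, 43.4 and 41.1 CPM in overTST. WT and shTST overlapped and overTST was below both, at −0.63 (SE 0.062, adjusted p = 1.1e-07), a value that moved little with the correction for length (−0.60). SPP1 had 466, 517, 466 and 446 CPM in WT, 421, 465, 390.4 and 455 CPM in shTST, and 358, 422, 439 and 367 CPM in overTST. Its overTST and WT libraries did not overlap, and shTST overlapped both. With shTST it was at −0.13 (SE 0.055, adjusted p = 0.109). It was called lower there with no filter (0.0303), with the replicate block (0.0321) and with the block and the correction for length (0.0140). It is the shortest member, at 2321 bases, and its fall in overTST was −0.26 (SE 0.061, adjusted p = 0.00210) before and −0.38 after the correction. VTN, the secreted attachment protein of plasma, was at 211 ± 14.9 CPM in WT, 212 ± 9.25 in shTST and 220.4 ± 13.1 in overTST (SD, n = 4 each) and was called in no comparison.

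THBS1 (ENSG00000137801, chromosome 15, 39581079 to 39599466, plus strand), the gene of thrombospondin, which activates latent TGF-beta, had 156, 169, 153 and 127 CPM in WT, 199, 185, 202 and 192 CPM in shTST, and 113, 117, 103 and 94.3 CPM in overTST. The 3 groups were separate, with shTST highest, WT between and overTST lowest. Its log2 fold change was 0.36 (SE 0.061, adjusted p = 3.7e-04) with shTST and −0.50 (SE 0.071, adjusted p = 9.4e-06) with overTST, and shTST exceeded overTST by 0.87 (SE 0.068, adjusted p = 2.1e-09). These calls held under every alternative tried. Of its exonic bases 7.56% are shared with antisense genes. Other genes also share exonic bases of NID2 (30.0%), VTN (13.6%), LAMA1 (11.1%), SPARC (7.89%), ITGA1 (6.39%) and ITGA6 (5.37%). The counts of these members are uncertain to that extent as well. The gene that overlaps VTN lies on the same strand, as do some of those that overlap ITGA1. COL27A1, a fibrillar collagen of cartilage, and ECM1 were not called against WT, at −0.11 (SE 0.068, adjusted p = 0.236) and 0.23 (SE 0.21, adjusted p = 0.421) with overTST. COL27A1 was higher in shTST than in overTST by 0.17 (SE 0.065, adjusted p = 0.0487), which became 0.00060 (adjusted p = 0.996) after the correction for length. The call was also lost with RLE (0.0505) and upper-quartile normalization (0.0613). Leaving out any 1 of several libraries lost it too, for instance overTST replicate 1 (0.179) or shTST replicate 3 (0.150).

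The receptors divided. Of 10 tested, 5 were lower and 1 higher with overTST (18.2% and 15.7% of all genes), and 4 were lower and 1 higher with shTST (9.4% and 6.69%). ITGA2 (ENSG00000164171, chromosome 5, 52989326 to 53094779, plus strand), a collagen receptor subunit, had 43.3, 51.3, 38.8 and 38.2 CPM in WT, 29.0, 31.9, 23.9 and 28.0 CPM in shTST, and 26.9, 26.3, 27.0 and 24.5 CPM in overTST. Both engineered lines lay below WT without overlap, at −0.61 (SE 0.086, adjusted p = 6.9e-05) with shTST and −0.72 (SE 0.079, adjusted p = 4.7e-07) with overTST. Between the lines the difference was 0.10 (SE 0.086, adjusted p = 0.393), with a 95% interval from −0.067 to 0.27, so a difference of that size was not resolved. ITGA6, a laminin receptor subunit, had 119, 115, 103 and 106 CPM in WT, 94.0, 102, 90.5 and 104 CPM in shTST, and 83.1, 63.1, 67.7 and 67.5 CPM in overTST. WT and shTST overlapped and overTST lay below both, at −0.65 (SE 0.069, adjusted p = 2.9e-07) against WT, and the smaller fall with shTST, −0.18 (SE 0.054, adjusted p = 0.0229), was lost on leaving out WT replicate 1 (adjusted p = 0.0811), or shTST replicate 1 (0.0935) or 3 (0.0936), and in the fit of all 12 libraries (0.0611).

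ITGB4, which pairs with ITGA6 in hemidesmosomes, moved the other way in overTST, with 25.6, 28.6, 28.2 and 29.1 CPM in WT, 23.9, 24.4, 25.2 and 24.5 CPM in shTST, and 31.4, 33.1, 30.1 and 32.0 CPM in overTST. The groups were ordered without overlap, overTST above WT and shTST below it, at 0.18 (SE 0.064, adjusted p = 0.0279) and −0.18 (SE 0.059, adjusted p = 0.0352), and shTST differed from overTST by −0.37 (SE 0.059, adjusted p = 5.0e-05). The direct difference held under every alternative. Its call with overTST was lost without WT replicate 1 (adjusted p = 0.110), overTST replicate 2 (0.0799) or overTST replicate 4 (0.0627), and with no filter (0.119). Its call with shTST was lost on leaving out WT replicate 2 (0.0696), 3 (0.0638) or 4 (0.124), or shTST replicate 1 (0.105), 2 (0.0786) or 4 (0.0834). Upper-quartile normalization lost it too (0.0616). DAG1, the dystroglycan gene, had 250.4, 245, 225 and 216 CPM in WT, 256, 261, 269 and 269.8 CPM in shTST, and 229.8, 233, 220.0 and 222 CPM in overTST. All shTST libraries were above all WT libraries, at 0.17 (SE 0.047, adjusted p = 0.0153), a call lost without WT replicate 4 (0.0717) or shTST replicate 4 (0.0509), and overTST was at −0.051 (SE 0.052, adjusted p = 0.478).

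ITGB1, the beta subunit shared by most matrix integrins, had 198, 200.4, 182 and 178 CPM in WT, 198, 189, 176 and 196 CPM in shTST, and 171, 148, 161 and 150.0 CPM in overTST. Its overTST libraries lay below all others, at −0.27 (SE 0.055, adjusted p = 5.7e-04) against WT, and stood at 0.00032 (SE 0.049, adjusted p = 0.997) with shTST. ITGAV, which pairs with ITGB5 as a vitronectin receptor, had 61.4, 68.3, 64.0 and 59.9 CPM in WT, 60.7, 63.6, 48.5 and 62.7 CPM in shTST, and 55.7, 42.7, 48.3 and 40.0 CPM in overTST. It was lower in overTST than in WT without overlap, at −0.44 (SE 0.075, adjusted p = 8.8e-05), and at −0.11 (SE 0.068, adjusted p = 0.293) with shTST. ITGB5 had 170.2, 193, 177 and 174 CPM in WT, 154, 166, 157 and 156 CPM in shTST, and 167, 176, 173 and 177 CPM in overTST. Its shTST libraries lay below all others, and it was lower than in WT at −0.17 (SE 0.046, adjusted p = 0.0118), lost without shTST replicate 1 (adjusted p = 0.0523), and was at −0.043 (SE 0.049, adjusted p = 0.535) with overTST. ITGA1, a collagen receptor subunit, fell with overTST at −0.44 (SE 0.12, adjusted p = 0.00571) with overlapping groups, and DESeq2 (0.0732) and limma-voom (0.0618) did not call it. ITGA3 was not called against WT, at −0.37 (SE 0.13, adjusted p = 0.0627) with shTST, but was called lower there without shTST replicate 2 (0.0208) or WT replicate 4 (0.0499). For ITGA5 all 4 WT libraries but 3 of the 4 shTST libraries reached the filter's cut-off. Its log2 fold change with shTST, −0.48 (SE 0.29), is therefore given as a description without a test. With overTST ITGA5 was not called, at −0.14 (SE 0.29, adjusted p = 0.755).

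**Figure D1:**
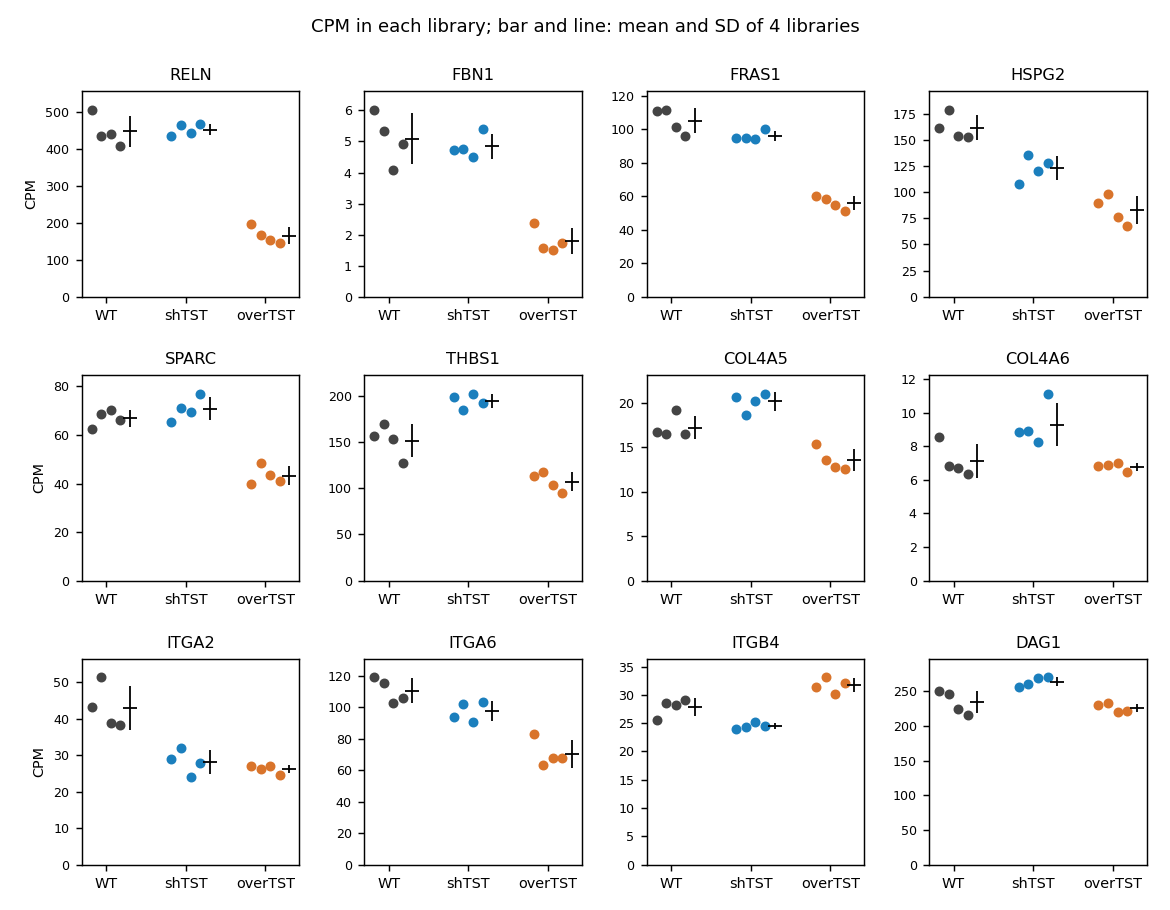
CPM (vertical axes, from 0) of 12 members in each of the 12 libraries by group, with the mean and SD of 4 libraries beside them. RELN, FBN1, FRAS1 and SPARC have their lowest 4 libraries in overTST, HSPG2, ITGA2 and ITGA6 have means below WT in both lines, and the means of THBS1, COL4A5 and ITGB4 lie on opposite sides of WT in the 2 lines.

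Both comparisons with WT share the WT libraries, so calls of a member in both are not independent. A call in the first line and none in the other does not show that the lines differ. The direct test, which bears on that, left 14 members uncalled, ITGA2 among them.

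Other genes of matrix assembly and adhesion were counted in lists. Of the adhesion complex genes, which tie integrins to actin, 26 of 28 were tested, and 13 were lower and 0 higher with shTST, and 15 lower and 2 higher with overTST. After the correction for length 5 were lower and 3 higher with overTST. FLNA, an actin crosslinker, was at 1083 ± 72.7 CPM in WT, 849 ± 75.9 in shTST and 798 ± 73.4 in overTST (SD, n = 4 each), with log2 fold changes of −0.35 (SE 0.059, adjusted p = 4.1e-04) and −0.44 (SE 0.062, adjusted p = 9.8e-06). TNS3, a tensin of focal adhesions, was at −0.13 (SE 0.052, adjusted p = 0.0911) and −0.65 (SE 0.058, adjusted p = 2.7e-08). Of 29 collagen processing and cross-linking genes 24 were tested with shTST, with 0 higher and 5 lower, and 23 with overTST, with 4 higher and 5 lower (4 and 3 after the correction for length), among them the lysyl oxidase LOXL4 (−0.35 with overTST) and the chaperone PPIB (0.35). Of 30 matrix proteases and inhibitors 19 were tested with shTST, with 1 higher and 4 lower, and 20 with overTST, with 1 higher and 5 lower (1 and 3 after the correction), TIMP3 (−0.42) and SERPINE2 (−0.37) among the latter. Shares over all genes are those given above for each comparison.

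As a background for the lists below, 6.69% of all genes tested were higher and 9.4% lower with shTST. With overTST 15.7% were higher and 18.2% lower, and 14.2% and 14.3% after the correction for length. Of 29 genes of heparan sulfate proteoglycans and their chain enzymes, which build the chains on perlecan and agrin, 23 were tested with shTST, with 2 higher and 0 lower, and 22 with overTST, with 1 higher and 8 lower (1 and 4 after the correction for length). Those with the smallest p were the glypican GPC6 (−0.46 (SE 0.064, adjusted p = 8.3e-06)) and the chain-starting EXTL3 (−0.29 (SE 0.060, adjusted p = 7.1e-04), −0.10 and 0.181 with the correction for length). Dystroglycan needs sugar chains to bind laminin, and of 18 genes that make them 0 were higher and 3 lower with shTST and 5 higher and 5 lower with overTST, which became 1 higher and 4 lower after the correction, all 18 being tested. B3GALNT2, an enzyme of that chain, was lower with overTST, at −0.57. Of 40 other basement membrane, fibulin and integrin genes 14 were tested with shTST, with 1 higher and 1 lower, and 12 with overTST, with 0 higher and 2 lower (1 and 2 after the correction). The 2 lower without it were FREM1, the further partner of FRAS1, and NTN4, a netrin of basement membranes. FREM1 had 14.8, 18.1, 14.2 and 15.8 CPM in WT, 13.7, 12.5, 12.7 and 13.5 CPM in shTST, and 6.79, 6.52, 9.07 and 8.54 CPM in overTST. Its overTST libraries lay below all others, at −1.03 (SE 0.11, adjusted p = 1.8e-07), with −0.27 (SE 0.079, adjusted p = 0.0221) for shTST. NTN4 was higher with shTST, at 0.30 (SE 0.078, adjusted p = 0.0116), and lower with overTST, at −0.44 (SE 0.10, adjusted p = 0.00204). Of the reelin receptors and their adaptor, VLDLR was lower in both lines, at −0.45 (SE 0.10, adjusted p = 0.00445) with shTST and −0.74 (SE 0.11, adjusted p = 1.7e-05) with overTST, and 1 other gene of the 3 was tested and not called.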

How the data were processed

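Total RNA of 12 HepG2 libraries (4 WT, 4 shTST, 4 overTST) was sequenced, and groups and replicate numbers were taken from the labels. The authors deposited raw read counts per Ensembl gene, with exon coordinates and exonic length, without normalization. Per the labels, reads were trimmed with Trimmomatic 0.36 and processed with STAR 2.5.2b and featureCounts of Subread 1.5.2 on GRCh38. The use of strand and the annotation release are not given in the sources used here. All 57500 genes were read, and 56410 had a symbol.

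For shTST and for overTST against WT, a model was fitted to the 8 libraries concerned, and for shTST against overTST to all 12. Low counts were removed by filterByExpr (defaults) and libraries scaled by TMM. The quasi-likelihood test of edgeR was applied, and p-values were adjusted by Benjamini-Hochberg over all genes tested, with a threshold of 0.05. The fits held 14584 genes (shTST against WT), 14421 (overTST against WT) and 14883 (shTST against overTST). CPM and RPKM used 1 TMM scaling over 12 libraries. The length correction removed, in each library, a lowess trend (span 0.3) of log counts on exonic length. Depth was 22911380 to 45120508 counts per library. Chi-square per gene was 3.78 to 38.9 over the 18 pairs of libraries of the same group, so none was a copy. Same-numbered libraries of different groups did not deviate together (12 pairs, r from −0.053 to 0.080, and the same number correlated best for 5 of them), so replicate numbers were not treated as pairs.

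The members and lists were chosen with earlier results of these data known. Named were all 44 members, TST, markers at 0 or highest in their list, and the epithelial marker CDH1. From each other list the 2 genes with the smallest p among those called in overTST against WT were named. This left VLDLR alone for the reelin receptors. One gene that this rule named is not reported here. The alternatives were DESeq2, limma-voom, RLE and upper-quartile normalization, no filter, more than 1 CPM in at least 4 libraries, the length correction, the replicate number as a block (with and without that correction), a fit of 12 libraries and leaving out each library. The fits were tested on simulated data first. Tools were edgeR 4.0.16, DESeq2 1.42.0 and limma 3.58.1 in R 4.3.3, and Python 3.11.15 with pandas 2.3.3 and matplotlib 3.10.9. Promoter sequences were taken from RefSeq (GRCh38.p14) by symbol.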

Additional observations from a re-analysis of the deposited data

Results flagged for a closer look

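In 106 groups of 4 libraries of the members, a library was marked when its gap to the nearest other library exceeded Dixon's 95% critical value as a share of the group's range, which chance gives in about 1 in 20 groups. There were 3 such libraries. FRAS1 was at 100.2 CPM in shTST replicate 4 against 94.0 to 94.8 in the other 3 shTST libraries. COL4A5 was at 19.2 CPM in WT replicate 3 against 16.5 to 16.8 in the others. COL27A1 was at 39.8 CPM in WT replicate 2 against 35.1 to 35.6 in the others. No explanation of these values was tested.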

How the results depend on the processing

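Of the calls of listed members, 3 of 11 with shTST against WT, 15 of 21 with overTST against WT and 16 of 22 in the direct comparison held under every alternative tried, and none reversed. The 21 include COL4A2, which fell short of the filter's cut-off in WT and whose call was lost with DESeq2 and with no filter. With shTST, the lower members numbered 5, and 9 with no filter, with leave-one-out values of 2 (without shTST replicate 1) to 6. The higher members numbered 6, with leave-one-out values of 1 (without WT replicate 4) to 6, and were 3 without WT replicate 1 and 2 without shTST replicate 4. With overTST, the higher members numbered 2, but 1 with DESeq2, 0 with no filter and 1 with the filter of more than 1 CPM, with leave-one-out values of 0 (without overTST replicate 2) to 2, and 1 without WT replicate 1, WT replicate 4, overTST replicate 3 or overTST replicate 4. Leaving out single libraries gave 18 to 20 lower members. Between shTST and overTST, the lower members numbered 3 and were 1 to 3 with a library left out, 1 of them without shTST replicate 3, shTST replicate 4 or overTST replicate 2. Where the cause of such a move is the smaller number of libraries or genes it follows from the alternative itself, and otherwise the cause was not tested.

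With the replicate number as a block, 9 listed members were lower with shTST instead of 5, and the counts with overTST were the same as without it (19 lower and 2 higher). Depth limits the members with few counts, among them COL4A2 and the 5 that failed the filter.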
